A study of Homo sapiens with 4 samples.

Results

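The genes described here encode the mTOR kinase, the other subunits of its complexes mTORC1 and mTORC2, their inhibitors DEPTOR and AKT1S1, the TSC complex and the small GTPase RHEB. They were chosen by name: MTOR, MLST8, RPTOR, AKT1S1, RICTOR, MAPKAP1, DEPTOR, TSC1, TSC2 and RHEB, 10 of 18377 genes that had a probe set annotated to 1 gene. Where a gene had several probe sets, the brightest on average over the arrays was taken. The RNA came from OPM2, an established human multiple myeloma line, so the data describe 1 line. VS-5584 (also SB2343) is a drug that blocks the mTOR kinase and the class I PI3 kinases upstream of it. The 2 VS-5584 cultures received the drug for 24 h, at 123 nM per the sample labels and 125 nM per the series' design text, a dose placed there below the IC50 of the line. The 2 control cultures received the solvent DMSO for 24 h, in the same medium with fetal serum. The question was which early genes are regulated under the drug.

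mTOR is a kinase that couples growth factors and nutrients to protein synthesis and cell growth. With MLST8 and RPTOR it forms mTORC1, which drives translation through S6 kinase and the 4E-BPs, and with MLST8, RICTOR and MAPKAP1 it forms mTORC2, which phosphorylates AKT. RHEB in its GTP form activates mTORC1, TSC1 and TSC2 switch RHEB off, and DEPTOR binds and inhibits both complexes. DEPTOR is known for high levels in a subset of myelomas and has been described as held down by mTOR signalling itself. These arrays measured transcripts, not the activity of the kinase or the amount of protein.

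None of the 10 transcripts passed the test after VS-5584. MTOR and RHEB were lower on both VS-5584 arrays than on both control arrays, by 1.22-fold and 1.15-fold on average, and DEPTOR and RICTOR were higher on both, by 1.12-fold and 1.03-fold. In the other 6 genes the groups overlapped. With limma fitted over 11026 genes, 0 of the 10 had a Benjamini-Hochberg adjusted p under 0.05, their smallest adjusted p being 0.569 for MTOR. The background was 0% of all genes tested. At an unadjusted p under 0.05 the count was again 0 of 10, against 10.4% of all genes tested, and the same test without moderation also called 0. The 95% intervals excluded a 2-fold change in either direction for all 10 genes and a 1.5-fold change for 9 of them, MTOR being the exception. Those intervals take the spread of limma's model, in which the variance is partly shared over genes. Nothing in the labels beyond the words biological replicate says that the cultures were grown apart, so p-values measure only the spread between these samples.

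VS-5584 replicate 2 stood apart from the other arrays before any gene was considered. Its correlation with each of the other arrays over all probe sets (log2) was 0.980 to 0.985, and the other 3 correlated among themselves at 0.993 to 0.996. Its log2 values had an interquartile range of 1.74, against 1.93 to 1.95 elsewhere. The median gene lay 0.14 below the control mean on this array (log2 difference -0.14), and -0.0022 from it on VS-5584 replicate 1. Markers of the labelled cell type, the plasma cell, were present, although nothing specific to OPM2 was checked: all 10 plasma cell markers checked, among them SDC1, CD38, IRF4 and XBP1, passed the filter on dim genes. All 6 T cell markers and all 6 monocyte markers lay below that filter, as did 3 of 5 fibroblast markers. COL1A1 and COL1A2 were the 2 that passed, with log2 differences of 0.096 and 0.11. The log2 of the summed intensity of each marker list was 13.7 and 13.8 in VS-5584 cells against 13.6 and 13.6 in control cells for plasma cell markers, 7.60 and 7.68 against 7.55 and 7.64 for T cell markers, 7.61 and 7.68 against 7.58 and 7.61 for monocyte markers, and 7.99 and 8.02 against 7.91 and 7.91 for fibroblast markers. The part of these levels in the results was not tested. As RNA was taken from whole cultures, fewer cells with a transcript and less of it per cell cannot be told apart.

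**Figure D1:**
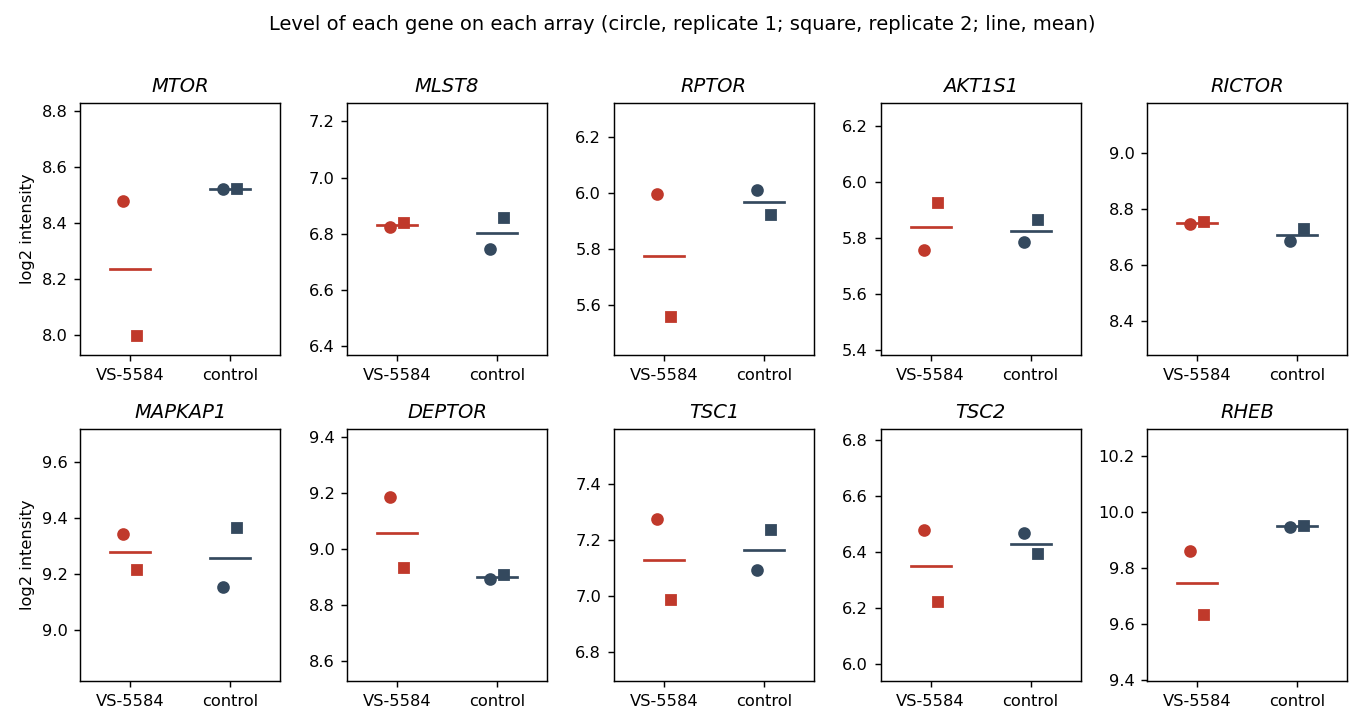
Log2 intensity (vertical axis, spanning 0.9 log2 units in each panel) of each gene on the 2 VS-5584 arrays (left, red) and the 2 control arrays (right, blue), with circles for replicate 1, squares for replicate 2 and lines for means. MTOR and RHEB sit below both controls and DEPTOR and RICTOR above both. The red points of MTOR, RPTOR, TSC1, TSC2, DEPTOR and RHEB are further apart than any pair of control points, most of all in MTOR and RPTOR.

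The promoter windows of MTOR, RHEB and RICTOR are shown because these are 3 of the 4 genes whose groups did not overlap; each runs from 250 bases before to 50 bases after the annotated start, 5′ to 3′, from RefSeq on GRCh38.p14. They lie on the minus strand at chr1:11262502-11262801 for MTOR, chr7:151519846-151520145 for RHEB and chr5:39074350-39074649 for RICTOR. Capitals mark matches to GGGCGG, the core of the SP1 motif, or its reverse complement CCGCCC.
MTOR: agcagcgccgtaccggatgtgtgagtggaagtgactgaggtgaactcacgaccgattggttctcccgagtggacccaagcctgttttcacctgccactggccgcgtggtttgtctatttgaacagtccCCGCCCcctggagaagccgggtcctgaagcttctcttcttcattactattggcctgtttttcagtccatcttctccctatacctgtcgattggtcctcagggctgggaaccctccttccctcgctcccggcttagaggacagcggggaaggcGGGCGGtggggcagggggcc
RHEB: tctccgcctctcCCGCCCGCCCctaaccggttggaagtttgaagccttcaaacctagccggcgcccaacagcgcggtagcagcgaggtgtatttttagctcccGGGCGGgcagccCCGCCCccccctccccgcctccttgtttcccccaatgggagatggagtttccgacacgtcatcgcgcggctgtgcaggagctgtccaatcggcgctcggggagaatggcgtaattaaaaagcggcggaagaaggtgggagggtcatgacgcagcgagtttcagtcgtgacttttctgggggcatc
RICTOR: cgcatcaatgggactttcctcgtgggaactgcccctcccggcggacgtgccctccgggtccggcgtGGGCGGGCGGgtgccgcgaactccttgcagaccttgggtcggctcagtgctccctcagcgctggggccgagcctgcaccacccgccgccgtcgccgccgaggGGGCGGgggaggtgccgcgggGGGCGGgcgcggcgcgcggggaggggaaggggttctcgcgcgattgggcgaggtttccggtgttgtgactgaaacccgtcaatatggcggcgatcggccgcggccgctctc
GGGCGG on either strand, counting overlapping matches, occurred 2 times in the MTOR window and 4 times each in the RHEB and RICTOR windows, and 44.95% of all 35116 RefSeq windows of this length hold it. No match was found in these 3 windows to the ETS motif CCGGAAG (10.3% of all windows), the E-box CACGTG (7.26%), the FOXO motif GTAAACA (3.42%) or the cyclic AMP response element TGACGTCA (1.85%), each searched on both strands. Of the 8 windows found, which belong to 7 of the 10 genes, 7 held GGGCGG and 4 held CCGGAAG. As 2 overlapping windows of TSC2 share their CCGGAAG matches, these windows belong to 3 genes. Matches are a description of letters, and the array data carry no measure of binding.

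The catalytic subunit MTOR had the largest mean difference of the 10 genes. Its intensities were 356 and 255 in VS-5584 cells (replicates 1 and 2), against 367 and 367 in control cells. Both VS-5584 values lay below the controls, but nearly the whole distance came from replicate 2, at a log2 difference of -0.52 from the control mean, against -0.043 for replicate 1. Log2 intensity averaged 8.24 ± 0.34 in VS-5584 cells and 8.52 ± 0.00037 in control cells (SD, n = 2 each). The difference was -0.28 ± 0.17 (SE), with a 95% interval of -0.66 to 0.098 (limma adjusted p = 0.569). Without VS-5584 replicate 1 the log2 difference was -0.52 (limma adjusted p = 0.0122), and 23.9% of all genes were called in that fit. Without VS-5584 replicate 2 it was -0.043 (0.981), where 0.0181% of all genes were called. After median centring over the genes tested, which adds the same amount to the difference of every gene, it was -0.17. After cyclic loess, whose correction varies with intensity, it was -0.12.

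RPTOR, the scaffold that brings substrates to mTORC1, varied in the same way as MTOR between the VS-5584 arrays. It had intensities of 63.9 and 47.1 in VS-5584 cells, against 64.6 and 60.7 in control cells. Replicate 1 fell between the controls and replicate 2 below both, so the groups overlapped. The log2 difference was -0.19 ± 0.16 (SE), with a 95% interval of -0.56 to 0.18 (limma adjusted p = 0.688). Without VS-5584 replicate 1 it was -0.41, and without VS-5584 replicate 2 its sign turned, to 0.029. These intensities lie near the filter on dim genes, which stood at 48.9, and any constant in the deposited values would shrink such a difference: with 16 subtracted from every intensity it was -0.27.

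AKT1S1 (PRAS40), the other mTORC1-bound inhibitor, was as dim. It read 54.1 and 60.7 in VS-5584 cells, against 55.2 and 58.2 in control cells. The VS-5584 values lay on either side of the controls, and the log2 difference was 0.015 ± 0.14 (SE; 95% interval -0.29 to 0.32), with a sign that turned after cyclic loess (-0.022). MLST8, the small subunit common to both complexes, read 113 and 114 in VS-5584 cells, against 107 and 116 in control cells. Its VS-5584 values fell between the controls, with a log2 difference of 0.029 ± 0.13 (SE; 95% interval -0.26 to 0.32). After median centring and cyclic loess this was 0.15 and 0.14.

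The defining subunits of mTORC2 had small mean differences in the unscaled values. After median centring and cyclic loess these were 0.16 and 0.20 for RICTOR and 0.14 and 0.16 for MAPKAP1. RICTOR, its scaffold, had intensities of 430 and 432 in VS-5584 cells, against 413 and 424 in control cells. Both VS-5584 values lay above both controls by a few percent, with a log2 difference of 0.042 ± 0.13 (SE), a 95% interval of -0.25 to 0.33 and a limma adjusted p of 0.917. Replicate 1 minus replicate 2 in VS-5584 cells was -0.0054 on the log2 scale for RICTOR and 0.48 for MTOR. In RICTOR the 2 VS-5584 arrays thus gave nearly the same reading, although replicate 2 stood apart over the array as a whole. MAPKAP1 (SIN1), which presents AKT to the kinase, read 649 and 594 in VS-5584 cells, against 570 and 658 in control cells. Its groups overlapped and its controls lay further apart than its group means, at a log2 difference of 0.021 ± 0.14 (SE; 95% interval -0.29 to 0.34).

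DEPTOR had the highest positive difference of the 10 genes. Its intensities were 581 and 489 in VS-5584 cells, against 475 and 480 in control cells. Both VS-5584 values lay above the controls, replicate 1 by a log2 difference of 0.28 and replicate 2 by 0.033, so most of the distance came from replicate 1. Log2 intensity averaged 9.06 ± 0.18 in VS-5584 cells and 8.90 ± 0.012 in control cells (SD, n = 2 each). The difference was 0.16 ± 0.14 (SE), with a 95% interval of -0.16 to 0.47 (limma adjusted p = 0.698). Of all genes tested, 90.0% had a lower difference. Median centring raised the difference of every gene by the same amount. Cyclic loess raised it in all of the 10 genes but RPTOR and AKT1S1. For DEPTOR the difference was 0.27 ± 0.13 (SE) after median centring (limma adjusted p = 0.395) and 0.31 ± 0.11 (SE) after cyclic loess (limma adjusted p = 0.277). Over the 10 other settings with all 4 arrays it ran from 0.16 to 0.31, and it passed in none of them. The block, the filters, the intensity trend and the unmoderated test leave the difference itself unchanged, as does averaging for a gene with 1 probe set. With any array left out it ran from 0.033 to 0.28. As the groups did not overlap, its sign could not turn in those fits.

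TSC1 and TSC2, the subunits of the complex that inactivates RHEB, showed the same pattern as each other. TSC1 read 155 and 127 in VS-5584 cells, against 136 and 151 in control cells. TSC2 read 89.2 and 74.6 in VS-5584 cells, against 88.5 and 83.9 in control cells. In both genes VS-5584 replicate 1 was above both controls and replicate 2 below both, so the groups overlapped. The log2 differences were -0.035 ± 0.15 and -0.080 ± 0.14 (SE), with 95% intervals of -0.37 to 0.30 and -0.40 to 0.24. Both signs turned after median centring, to 0.082 and 0.037, and after cyclic loess the values were 0.10 and -0.031.

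RHEB, the GTPase that switches mTORC1 on, was the other gene below both controls. Its intensities were 929 and 793 in VS-5584 cells, against 988 and 988 in control cells. Log2 intensity averaged 9.75 ± 0.16 in VS-5584 cells and 9.95 ± 0.00037 in control cells (SD, n = 2 each). The difference was -0.20 ± 0.14 (SE), with a 95% interval of -0.51 to 0.11 (limma adjusted p = 0.619). It was -0.088 without VS-5584 replicate 2 and -0.084 after cyclic loess. RHEB was the 1 member with 2 probe sets. The second read 729 and 721 in VS-5584 cells, against 771 and 783 in control cells, also below both controls, with a log2 difference of -0.10. RefSeq lists 3 RHEB pseudogenes, and how far they share signal with either probe set was not tested.

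**Figure D2:**
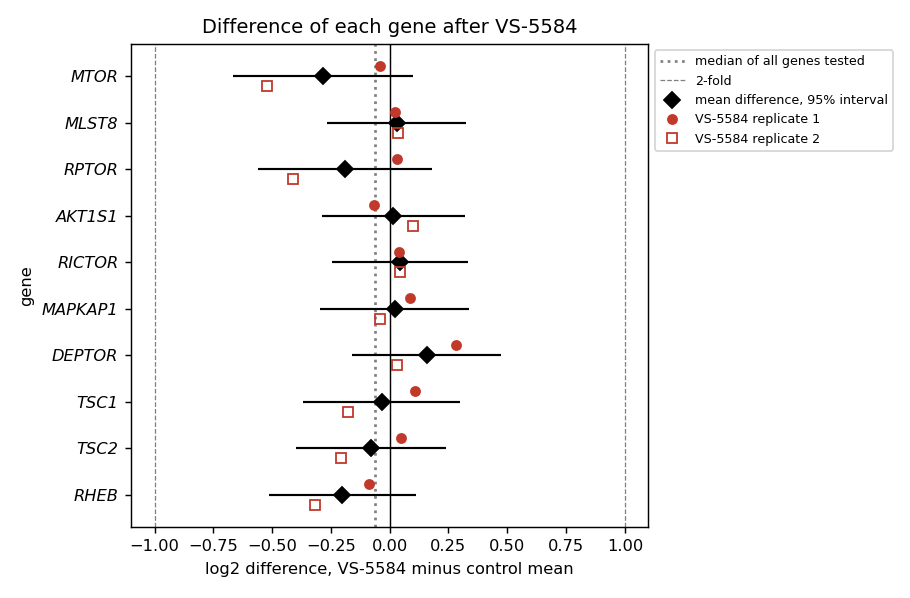
Log2 difference from the control mean (horizontal axis) for each gene: diamonds are means of the 2 VS-5584 arrays with limma's 95% interval, circles and open squares the single VS-5584 arrays. Every interval crosses 0 and lies inside the 2-fold lines, and MTOR and RPTOR show the widest gaps between circle and square.

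Counted over the 10 genes, 5 were lower and 5 higher on average after VS-5584, with a median log2 difference of -0.0099. Of all genes tested 62.7% were lower, with a median of -0.064. Groups were apart for MTOR and RHEB, 2 of 10 in the lower direction, where the background was 29.2%, and for DEPTOR and RICTOR, 2 of 10 in the higher direction, where it was 14.7%. Either count, over 10 genes, is near its background. After cyclic loess 5 of the 10 were lower, against 49% of all genes, and after median centring 3 of 10, against 40.4%. On VS-5584 replicate 1 alone 3 of 10 lay below the control mean, against 50.6% of all genes, and on replicate 2 alone 6 of 10, against 67.4%. The gap between the VS-5584 arrays exceeded the gap between the group means in 8 of the 10 genes. Its median size was 0.24 log2 units, against 0.077 between the control arrays. Over all genes tested these medians were 0.20 and 0.10.

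**Figure D3:**
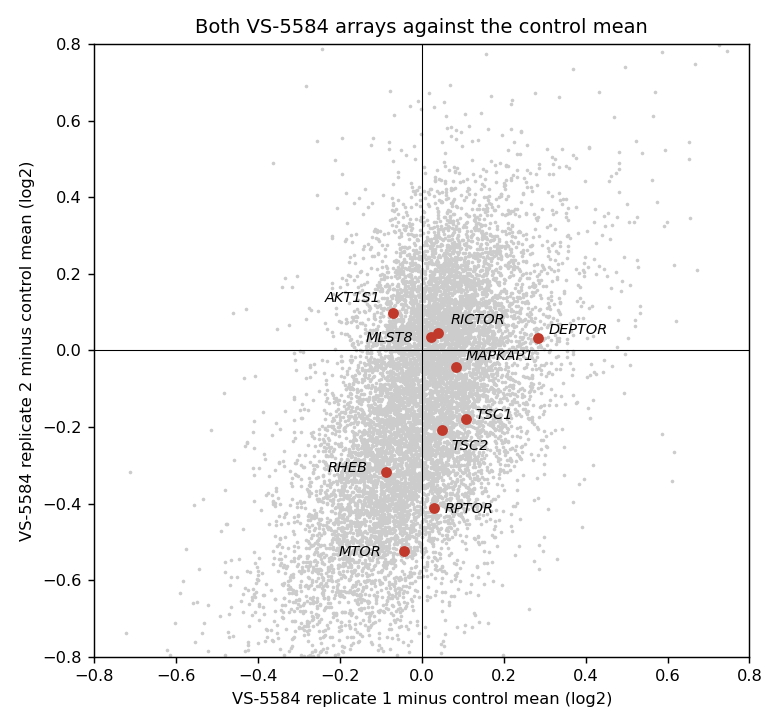
Log2 difference from the control mean on VS-5584 replicate 1 (horizontal axis) and replicate 2 (vertical axis) for the 11026 genes tested (grey; 284 lie outside the range shown) and the 10 genes (red). DEPTOR lies to the right at 0.28 and 0.033, MTOR and RPTOR lie low at -0.52 and -0.41 on replicate 2 and near 0 on replicate 1, and RICTOR and MLST8 lie close to the origin.

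A ratio of 2 genes on the same array is unaffected by any scaling factor of that array. DEPTOR was therefore set against each of the other 9 genes within arrays, a comparison added after the values were seen. Such a ratio is not free of array differences that vary with intensity, and VS-5584 replicate 2 had a narrower range of log2 values. The log2 ratio of DEPTOR to MTOR was 0.71 and 0.94 in VS-5584 cells, against 0.37 and 0.39 in control cells, a difference of 0.44. That of DEPTOR to RHEB was -0.68 and -0.70 in VS-5584 cells, against -1.06 and -1.04 in control cells, a difference of 0.36. Both ratios were higher on each VS-5584 array than on each control array. The same held for DEPTOR over RPTOR, TSC1 and TSC2, with differences of 0.35, 0.19 and 0.24. Over RICTOR, MLST8, MAPKAP1 and AKT1S1 the groups overlapped, with differences of 0.12 to 0.14. The ratio of DEPTOR to any other gene tested was higher without overlap for 62.3% of 11025 genes, so 5 of 9 is near that background. An exact permutation test of 2 against 2 arrays cannot give a two-sided p below 0.333.

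The 5 genes tested whose centred log2 values lay nearest to those of DEPTOR over the 4 arrays were PABPC4, LYPD3, RRBP1, CFAP53 and PHLDA3. PABPC4 is a poly(A)-binding protein gene, RRBP1 encodes a ribosome-binding protein of the endoplasmic reticulum, and PHLDA3 an inhibitor of AKT. The root mean square distance ran from 0.014 log2 units for PABPC4 to 0.018 for PHLDA3. Their log2 differences ran from 0.12 for PHLDA3 to 0.19 for LYPD3. With 4 arrays, such nearness describes these arrays only.

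Other genes of the pathway came from 5 lists holding 75 genes, of which 60 were tested. None passed with limma over all genes, and at an unadjusted p under 0.05 4 were lower and 1 higher, where 8.93% and 1.49% of all genes tested were. Of the 60, 44 were lower and 16 higher on average, with a median log2 difference of -0.095, against 62.7% lower and -0.064 for all genes tested. After cyclic loess 31 of the 60 were lower, against 49% of all genes, and after median centring 29, against 40.4%. The groups did not overlap for 19 lower and 6 higher genes, near the background of 29.2% and 14.7%.

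The list of further complex and TSC partners had 3 genes tested, all lower on average, with a median log2 difference of -0.20. TTI1, part of the co-chaperone that assembles mTOR and related kinases, had log2 intensities of 7.43 and 6.87 in VS-5584 cells, against 7.58 and 7.67 in control cells. Its log2 difference was -0.48 ± 0.18 (SE; limma adjusted p = 0.426), -0.20 without VS-5584 replicate 2 and -0.76 without VS-5584 replicate 1. PRR5L, an mTORC2-associated protein, read 5.51 and 5.52 in VS-5584 cells, against 5.70 and 5.72 in control cells. Its groups were apart with little spread in either, at a log2 difference of -0.20 ± 0.13 (SE; limma adjusted p = 0.605), which was -0.079 after median centring and -0.24 after cyclic loess.

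The genes that control the turnover of DEPTOR protein, through the ubiquitin ligase SCF with BTRC or FBXW11, through casein kinase 1 alpha, listed here with the deubiquitinase USP7, were lower in 7 of 7, with a median log2 difference of -0.14. Of all genes tested 62.7% were lower, with a median of -0.064. Over the brighter genes kept by a filter at 60% the median was -0.13. In 4 of the 7 the groups did not overlap, where the background in that direction was 29.2%. SKP1, the adaptor of that ligase, read 7.55 and 7.41 in VS-5584 cells, against 7.70 and 7.67 in control cells, a log2 difference of -0.20 ± 0.13 (SE; limma adjusted p = 0.603) that was -0.086 after median centring and -0.046 after cyclic loess. CSNK1A1, the casein kinase gene, differed by -0.16 ± 0.13 (SE), and by 0.00033 after cyclic loess. The list's medians on VS-5584 replicates 1 and 2 were -0.060 and -0.24.

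Among the genes that act on TSC and RHEB from upstream, such as AKT, AMP kinase and the sestrins, 12 of 14 were lower, with a median log2 difference of -0.11. DDIT4 (REDD1), a stress-induced protein that activates the TSC complex, read 6.63 and 6.62 in VS-5584 cells, against 6.84 and 6.93 in control cells. Both VS-5584 arrays gave nearly the same value and lay below both controls, at a log2 difference of -0.26 ± 0.13 (SE; limma adjusted p = 0.522), which was -0.14 after median centring and -0.16 after cyclic loess. TBK1, a kinase of innate immune signalling that also phosphorylates mTOR, differed by -0.19 ± 0.14 (SE), and by -0.078 and -0.037 after these scalings.

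Among substrates and effectors of the complexes, which held the highest positive difference of the 60 genes, 9 of 15 were lower, with a median log2 difference of -0.068. PDCD4, an inhibitor of translation initiation that S6 kinase marks for degradation, had log2 intensities of 7.44 and 7.87 in VS-5584 cells, against 6.94 and 7.01 in control cells. Both VS-5584 arrays were above both controls, at a log2 difference of 0.69 ± 0.16 (SE), a 1.61-fold difference whose 95% interval of 0.32 to 1.05 left out 0 (limma adjusted p = 0.276). It was 0.47 without VS-5584 replicate 2. Without VS-5584 replicate 1 it was 0.90. PDCD4 passed after median centring (limma adjusted p = 0.0251) and in the fit with the replicate number as a block (limma adjusted p = 0.0017). Those fits called 99 and 432 of the 11026 genes, against 0 in the main fit. An intensity trend called 80, cyclic loess 19, subtraction of 16 called 2, and a filter at 60% called 58 of 7351 genes. Over the other fits of all 4 arrays the limma or unmoderated adjusted p of PDCD4 ran from 0.0748 to 0.766.

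RPS6KB1, which encodes S6 kinase 1, read 8.15 and 8.12 in VS-5584 cells, against 8.44 and 8.72 in control cells, and EIF4EBP1, which encodes the translational repressor 4E-BP1 and was picked after its values were seen, read 7.18 and 7.02 in VS-5584 cells, against 7.52 and 7.43 in control cells. In both genes each VS-5584 array lay below each control. Their log2 differences were -0.45 ± 0.14 and -0.37 ± 0.13 (SE; limma adjusted p = 0.371 and 0.417). Without VS-5584 replicate 1 they were -0.47 and -0.45, and after cyclic loess RPS6KB1 stood at -0.29.

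Among genes that bring mTORC1 to the lysosome, the Rag GTPases, their Ragulator anchor and the GATOR and folliculin regulators, 13 of 21 were lower, with a median log2 difference of -0.093. SEC13, a GATOR2 subunit that also serves the nuclear pore and COPII coats, read 8.56 and 7.79 in VS-5584 cells, against 8.62 and 8.71 in control cells. Its log2 difference of -0.49 ± 0.22 (SE; limma adjusted p = 0.480) came mostly from VS-5584 replicate 2, and was -0.11 without it. FNIP1, the partner of folliculin, differed by -0.26 ± 0.16 (SE), by -0.064 without that array, and by -0.14 and -0.11 after median centring and cyclic loess. Without VS-5584 replicate 1 the differences of SEC13 and FNIP1 were -0.88 and -0.46.

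**Figure D4:**
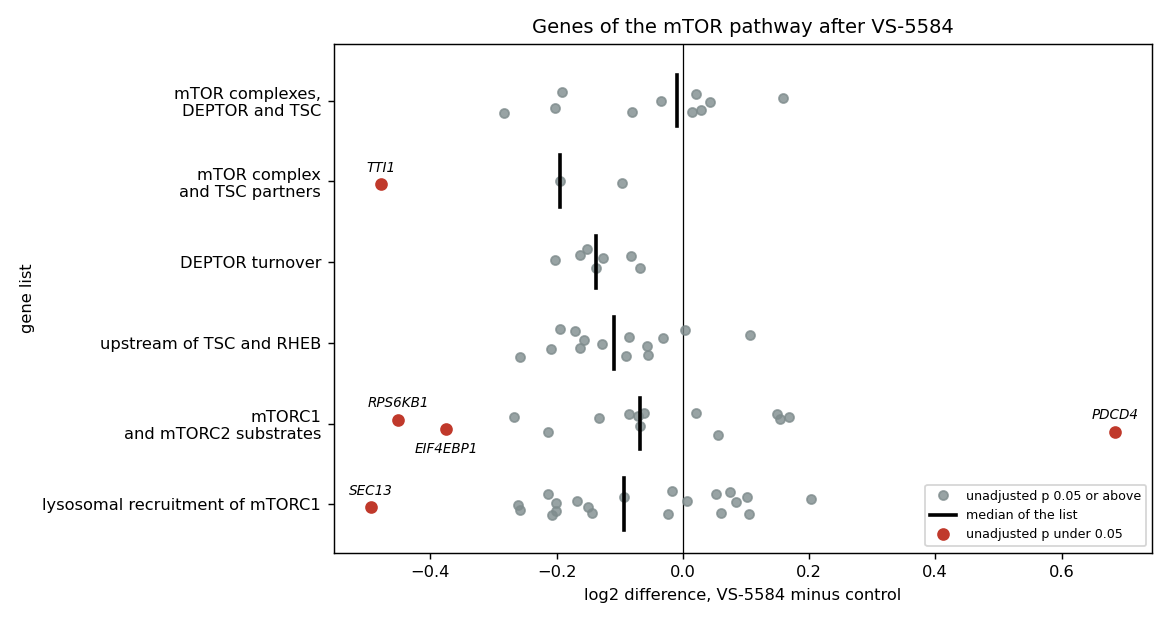
Log2 difference (horizontal axis) of each gene tested in the 10-gene set and in the 5 pathway lists (vertical axis; points are spread vertically for legibility only, black bars are medians, red marks an unadjusted p under 0.05). PDCD4 stands at 0.69, TTI1, SEC13, RPS6KB1 and EIF4EBP1 between -0.49 and -0.37, and the 10 genes between -0.28 and 0.16.

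Without VS-5584 replicate 1, 10 of the 60 pathway genes were called, 9 lower (TTI1, SEC13, FNIP1, RPS6KB1 and EIF4EBP1 among them) and 1 higher (PDCD4), together with MTOR and RPTOR, in a fit that called 23.9% of all genes. Without VS-5584 replicate 2 none of the 60 and none of the 10 were. In the plot of differences under other settings, AKT1S1, TSC1 and TSC2 changed sign under at least 1 rescaling. Under the rescalings MTOR, RPTOR and RHEB stayed negative and DEPTOR, RICTOR, MLST8 and MAPKAP1 positive. MTOR, RHEB, DEPTOR and RICTOR also kept their sign with any array left out. There it could not turn, as the groups of these genes did not overlap.

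**Figure D5:**
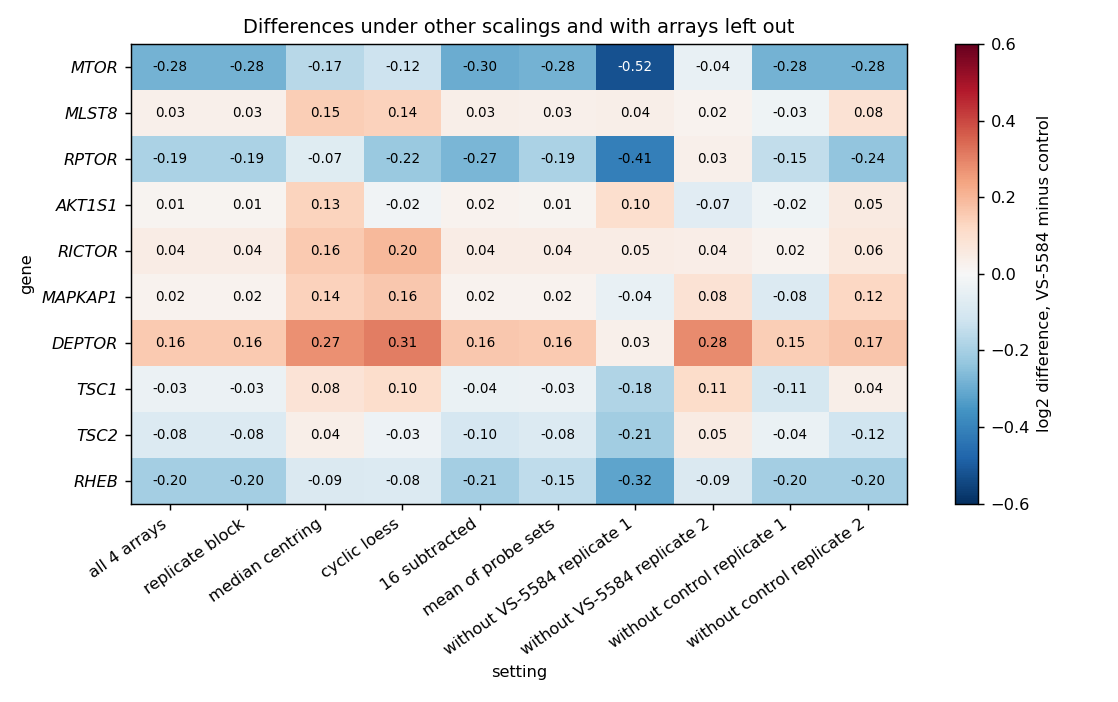
Log2 difference, VS-5584 minus control, of each gene (rows) under 10 settings (columns), coloured from blue (negative) to red (positive) with the value printed. The MTOR row runs from -0.52 to -0.043 and the DEPTOR row from 0.033 to 0.31.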

How the data were processed

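RNA of 4 OPM2 cultures was measured on 1-colour arrays, after labelling as cDNA with a whole-transcript kit per the labels' protocols. The deposited table gives 1 linear intensity per probe set and array. The submitters' processing notes name RMA, and the step from its usual log2 values to these intensities, the software and any added constant are not given in the sources used here, nor is a genome build for the array. Intensities were turned into log2 and not normalized again. Platform annotation gave 1 gene to 19310 of 28869 probe sets, several to 1752 and none listed for 7807, and 19279 were matched to RefSeq (GRCh38.p14) by gene ID.

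The 40% of genes with the lowest mean were left out, and 11026 were tested in limma 3.58.1 under R 4.3.3 (lmFit, then eBayes; two-sided, Benjamini-Hochberg, threshold 0.05). All 10 genes passed that filter, which used the mean of all arrays. On simulated data for VS-5584 against control over 11026 genes, 97 of 100 genes changed 2-fold and 100 of 100 changed 4-fold were called, with 5 unchanged genes called, in groups simulated with equal spread. No scanner file was used, so no probe set was called above background. Precision is limited by the number of arrays, and no batch is labelled. Named genes are the 10 genes, the 2 genes with the smallest unadjusted p in each pathway list and the 5 genes nearest to DEPTOR. The genes and lists were chosen with earlier results of these data known. Alternatives were a replicate block, median centring, cyclic loess, other filters, an intensity trend, an unmoderated test, the mean of probe sets, subtraction of 16 and leaving out each array. Figures were drawn with matplotlib 3.10.9.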

Additional observations from a re-analysis of the deposited data

How the results depend on the processing

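With all 4 arrays, none of the 10 genes was called under any of the 10 alternatives, and leaving out 1 array gave 0 to 2 called. Over all genes tested, the alternatives with 4 arrays called from 0 genes to 432 of 11026, the latter with the replicate block. A count of 0 of 10 is near so low a background. The 2 were called without VS-5584 replicate 1, in a fit that called a far larger share of all genes, as given above. The number of the 10 genes that were lower was 5 and ran from 3 to 8 with 1 array left out. It became 3 after median centring, which moved the median of all genes tested from -0.064 to 0.052. Pathway genes called numbered 0, and 1 (PDCD4) with the replicate number as a block and after median centring, and 0 to 10 with 1 array left out. Signs turned for AKT1S1 (-0.022) and TSC1 (0.10) after cyclic loess, for TSC1 (0.082) and TSC2 (0.037) after median centring, and for CSNK1A1 (0.00033) after cyclic loess. With 1 array left out, log2 differences ran from -0.41 to 0.029 for RPTOR, -0.026 to 0.085 for MLST8, -0.084 to 0.12 for MAPKAP1, -0.069 to 0.099 for AKT1S1, -0.18 to 0.11 for TSC1 and -0.21 to 0.049 for TSC2. The cause of these changes was not tested. Of 345 values for 25 named genes under the alternatives, 14 turned sign. The block, the filters, the intensity trend and the unmoderated test leave a log2 difference unchanged, so many of these values could not turn.

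The samples share only a replicate number: deviations of same-numbered arrays correlated at r = 0.16, and the replicate block called 432 genes over all, against 0 without it, with 0 of the 10 genes among them. A filter at 60% left 8 of the 10 genes. Fits with 1 VS-5584 or 1 control array assume that it varies like the other group. Dim genes, RPTOR and AKT1S1 among them, may show too small a difference if the intensities hold an added constant.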
